A study of Arabidopsis thaliana with 6 samples.

Results

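Transposable element genes are loci annotated inside transposons and retrotransposons, and 77 of the 5322 rows of the authors' deposited table carry that type. They were taken by the type alone, and all 77 were kept. The table compares whole seedlings of Arabidopsis thaliana (accession Ler) at 7 days after germination, with 3 libraries of a dme mutant (labelled dme/-) and 3 of wild type (WT), grown on MS plates. No transgene is named in the labels, and the dme allele is not given there. For every gene it gives the mean of the normalized counts, a log2 fold change (dme over WT, as read from the table's name, as no header names the numerator) and an adjusted p, with both thresholds applied: 2-fold or more, and below 0.05. Depth and the values of single libraries are not in it, so the adjusted p is the sole measure against the spread between libraries, and no label says that these came from separate cultures, so that spread may be technical.

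Transposons are kept silent in plants by cytosine methylation, by histone marks that go with it and by small RNAs that guide both. Retrotransposons (the copia-like and gypsy-like elements with long terminal repeats, and LINEs without them) copy themselves through RNA, while DNA transposons (CACTA-like, hAT-like, Mutator-like) are moved by a transposase. DME is a DNA glycosylase that cuts 5-methylcytosine out of DNA, and it is known best for its work in the central cell of the female gametophyte, where many of its targets are small transposons. The question of the comparison is what changes in seedling RNA without normal DME. In the authors' deposited table DME (AT5G04560, chromosome 5) itself fell by 1.55 on the log2 scale, with 2178 normalized counts on average (adjusted p 4.88e-17).

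Transposable element genes rose and fell in about equal numbers. Of the 77, 38 were higher and 39 lower in dme per the authors' deposited table, a share of 49.4% higher, while of all 5311 listed measurements (11 repeated pairs of rows counted once, with no transposable element gene among them) 72.8% were higher and 27.2% lower. Listed pseudogenes were 27 higher and 18 lower of 45 in that table, and listed genes typed as other RNA 26 higher and 36 lower of 62. These counts are descriptions, with no test of the difference. In the annotation of assembly TAIR10.1 all 77 loci were found and all were typed pseudogene, a type that holds 3917 loci on the 5 chromosomes, so that 1.97% of it was listed, against 18.6% of annotated protein-coding genes. Both shares count loci that may have had no reads. A change in RNA level in whole seedlings does not tell fewer cells of a type from less RNA per cell.

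Most of these loci were thinly covered. The median of their mean normalized counts was 17.4, against 211 for the other listed measurements, and 22 of the 77 (28.6%) lay under 10, against 4.95% of the others. From the mean and the fold change of the authors' deposited table the mean of each genotype was computed, called the implied mean here; it has no error of its own. In 23 of the 77 genes (29.9%, against 5.10% of the other listed measurements) the fold change was fully set by the mean, a relation that arises when a genotype has no reads. Such a pattern of no WT reads was found in 14 of the 77 (4.42% of all listed measurements) and of no dme reads in 9 (1.04% of all). No fold is given for these 23. Among the 54 with reads in both genotypes, 24 were higher and 30 lower, with median log2 fold changes of 3.11 and -2.0 per the authors' deposited table, against 1.98 and -1.38 among all listed measurements with reads in both. The part of low counts in these larger folds was not tested. Of the 20 genes with implied means of at least 10 in both genotypes, a minimum that removes the largest changes, 5 were higher and 15 lower (25% higher, against 71.1% of all listed measurements under it). At the other end, AT2G14430 and AT5G26582, both LINE loci, had the smallest log2 fold changes of the 77, at -1.03 and -1.05 per the authors' deposited table. As only changed genes are listed, the labelled tissue could not be checked against its markers. Of CASP1 to CASP5, markers of the root endodermis, 4 were listed and higher and CASP5 was not listed, with log2 fold changes of the 4 from 1.77 to 6.19 per the authors' deposited table and implied means that summed to 2225 in dme and 261 in WT; their part in the results was not tested.

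**Figure D1:**
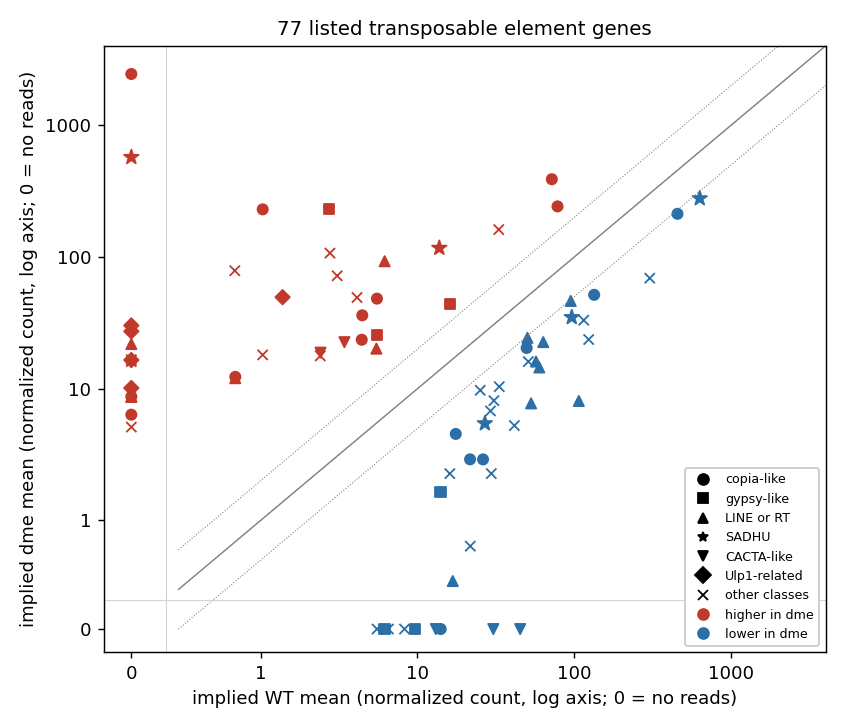
Implied mean normalized count of each of the 77 genes in dme (vertical) and WT (horizontal), on log axes with genes without reads placed at 0; the solid line marks equal means and the dotted lines 2-fold changes. The 14 genes without WT reads stand on the left edge, led by AT1G35115 at 2449 in dme, and the 9 without dme reads on the lower edge, none above 45.2 in WT; the table gives no error per genotype.

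The highest count of the 77 belonged to AT1G35115, a copia-like locus related by its description to SIRE1 gag-pol, on chromosome 1. Its implied mean was 2449 normalized counts in dme and it had the pattern of no reads in WT, with a mean of 1225 and an adjusted p of 1.17e-29 per the authors' deposited table, the smallest of the 77. The locus just before it in the annotated gene order, SADHU2-1 (AT1G35112), had the same pattern, with an implied dme mean of 572, no WT reads and an adjusted p of 2.84e-21 per the authors' deposited table. SADHU2-1 lies on the minus strand and AT1G35115 on the plus strand, 1039 bases apart, so they point away from each other. SADHU2-1 overlaps AT1G35110, a locus on its own strand that was not listed. A further copia-like locus, AT1G35050, 6 places before SADHU2-1, had implied means of 12.3 in dme and 0.690 in WT and a log2 fold change of 4.16 (adjusted p 0.00858 per the authors' deposited table). Within 10 loci of AT1G35115 the only other listed gene was EXL1 (AT1G35140), 3 places on, a protein-coding gene that rose by 3.06 on the log2 scale per the authors' deposited table. All 4 listed genes of this stretch were thus higher, as were 72.8% of all listed measurements, and the stretch was picked for its highest count. AT1G35115 has 2 further copies in the genome, made of nearby matches of at least 95% identity that together cover at least 80% of its length. The locus of its reads is thus uncertain.

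The window from 250 bases before to 50 bases after the annotated start of AT1G35115 (chr1:12841908-12842207, plus strand, TAIR10.1 of the Columbia accession) is shown because this gene had the highest count, with each CG, the context in which plant DNA is methylated most, in capitals.
AT1G35115: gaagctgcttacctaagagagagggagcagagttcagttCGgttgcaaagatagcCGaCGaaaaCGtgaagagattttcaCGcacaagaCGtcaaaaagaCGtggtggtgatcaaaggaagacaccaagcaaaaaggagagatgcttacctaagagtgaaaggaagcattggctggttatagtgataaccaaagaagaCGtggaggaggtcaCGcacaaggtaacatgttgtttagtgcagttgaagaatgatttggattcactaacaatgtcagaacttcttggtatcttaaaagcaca
It holds 9 CG dinucleotides (motif CG, which reads the same on both strands). At least 1 CG stands in 98.3% of 37897 such windows of annotated loci, at least 9 in 28.6%, and the median is 6. Over the 77 loci the median was also 6, with 8 in the 38 higher and 6 in the 39 lower ones. The higher ones include the 5 Ulp1-related loci described below, which are alike in sequence and held 19 to 21 each. Within the loci themselves the median was 2.96 CG per 100 bases in the higher and 3.10 in the lower genes. None of these values says whether a cytosine was methylated.

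The Ulp1-related loci all went higher. Their descriptions relate them to the Ulp1 protease family, peptidases that act on the small protein SUMO and that some Arabidopsis DNA transposons carry. All 5 were higher in dme, as were 72.8% of all listed measurements, and they were picked out after their values were seen. Only AT2G16180 had reads in both genotypes, with implied means of 49.6 in dme and 1.38 in WT, a log2 fold change of 5.16 and an adjusted p of 4.58e-05 per the authors' deposited table. AT1G45090, AT2G12100, AT5G28480 and AT2G05450 had implied dme means of 30.2, 27.3, 16.5 and 10.13 and the pattern of no WT reads, with adjusted p-values of 1.27e-05, 2.45e-05, 0.00931 and 0.00517 per the authors' deposited table. In all 5 the dme mean thus stood above a WT mean at or near 0. The loci lie on chromosomes 1, 2 and 5, yet their sequences are between 93.0% and 99.8% identical to each other over 10 pairs, and each has 4 copies in the genome by the measure above. Whether reads were shared between them is not known, and they are not taken as independent observations. The first stretch of 120 bases that the 5 loci share without a gap is shown because it makes this likeness visible, with capitals at the 3 positions where any of them differ. The stretches are chr1:17049189-17049308 and chr2:7019066-7019185 on the minus strand and chr2:1996457-1996576, chr2:4873840-4873959 and chr5:10433589-10433708 on the plus strand, in TAIR10.1.
AT1G45090: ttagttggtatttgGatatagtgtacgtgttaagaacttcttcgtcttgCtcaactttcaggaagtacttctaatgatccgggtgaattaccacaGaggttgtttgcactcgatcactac
AT2G05450: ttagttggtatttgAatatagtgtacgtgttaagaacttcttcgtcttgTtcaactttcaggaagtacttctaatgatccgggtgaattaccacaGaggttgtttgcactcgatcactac
AT2G12100: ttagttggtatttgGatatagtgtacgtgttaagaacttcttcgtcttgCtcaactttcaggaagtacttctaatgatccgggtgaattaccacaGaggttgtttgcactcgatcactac
AT2G16180: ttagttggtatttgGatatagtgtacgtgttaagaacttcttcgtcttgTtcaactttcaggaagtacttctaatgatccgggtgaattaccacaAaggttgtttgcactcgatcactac
AT5G28480: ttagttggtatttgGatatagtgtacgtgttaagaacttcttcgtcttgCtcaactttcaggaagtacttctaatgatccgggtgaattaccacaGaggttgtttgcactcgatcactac
AT1G45090 and AT2G12100 are the closest pair, with 4971 of 4980 aligned bases identical.

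SADHU elements, short non-coding retrotransposons known for expression that varies between Arabidopsis accessions, were 2 higher and 3 lower of the 5 listed. Beside SADHU2-1, SADHU5-1 (AT4G01525, chromosome 4) was higher, with implied means of 117 in dme and 13.8 in WT, a log2 fold change of 3.08 and an adjusted p of 3.13e-07 per the authors' deposited table. SADHU5-2 (AT5G27927, chromosome 5) went the other way, with implied means of 278 in dme and 631 in WT, a log2 fold change of -1.18 and an adjusted p of 4.31e-10 in that deposited table of the authors. SADHU7-1 (AT3G13438) and SADHU3-1 (AT3G44042) were lower too. Their implied means were 34.9 in dme and 96.4 in WT for SADHU7-1, and 5.45 in dme and 26.9 in WT for SADHU3-1, whose allele is described per the authors' deposited table as methylated and silenced in some accessions. The adjusted p-values of SADHU7-1 and SADHU3-1 were 0.0141 and 0.00832 per the authors' deposited table. SADHU7-1 overlaps AT3G13440, a protein-coding gene on the other strand that was not listed. SADHU5-1 and SADHU5-2, which moved in opposite directions, are 85.4% identical over 746 aligned bases, and SADHU2-1 and SADHU3-1, which also did, are 72.9% identical. The first 150 bases that SADHU5-1 (chr4:660994-661143, plus strand) and SADHU5-2 (chr5:9957442-9957591, minus strand, TAIR10.1) share without a gap differ at 26 positions, in capitals. They are shown because they tell the pair apart in the Columbia accession. Whether they tell reads of Ler apart is not known.
AT4G01525: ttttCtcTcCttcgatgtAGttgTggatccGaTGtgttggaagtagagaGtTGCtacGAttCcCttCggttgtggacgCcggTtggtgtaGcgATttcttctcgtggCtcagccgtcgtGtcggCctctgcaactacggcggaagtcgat
AT5G27927: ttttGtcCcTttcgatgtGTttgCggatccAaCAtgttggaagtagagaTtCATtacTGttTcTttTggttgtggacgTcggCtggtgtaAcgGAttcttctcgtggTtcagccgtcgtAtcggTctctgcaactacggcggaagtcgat
SADHU5-1 has another copy in the genome by the measure above, and SADHU5-2 has none. Within 10 loci of SADHU5-1 stood 6 listed genes, 5 higher (against 72.8% of all listed measurements) and 1 lower. They included the NAC transcription factor genes NAC067, the locus before it, at 3.48, and NTM1, 4 places on, at 3.69, while NGA4, a transcription factor gene 7 places before it, was the lower one at -1.04 on the log2 scale per the authors' deposited table.

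**Figure D2:**
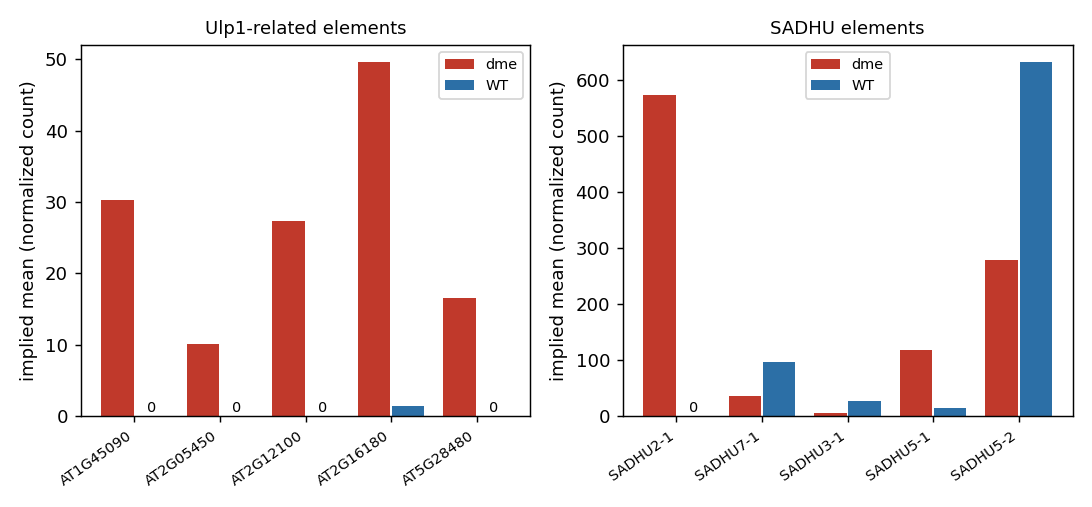
Implied mean normalized count in dme (red, left bars) and WT (blue, right bars) of the 5 Ulp1-related and the 5 SADHU elements, with 0 written where the pattern is that of no reads; the table gives no error. Every Ulp1-related bar is higher in dme, up to 49.6 for AT2G16180, while SADHU5-1 is higher in dme (117 against 13.8) and SADHU5-2 lower (278 against 631).

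Copia-like loci were the most numerous class, with 10 higher and 7 lower of 17. Their implied means summed to 3741 in dme and 885 in WT, of which AT1G35115 alone made up 2449 in dme. AT1G45120 rose most among those of the 77 with reads in both genotypes, with implied means of 229.9 in dme and 1.03 in WT, a log2 fold change of 7.80 and an adjusted p of 2.74e-18 per the authors' deposited table. Its WT mean, times 3 libraries, comes to 3.10 normalized counts, so the size of this fold rests on few reads. AT1G45120 stands 3 places after the Ulp1-related AT1G45090 and next to BGAL5, a beta-galactosidase gene that rose by 2.05 on the log2 scale per the authors' deposited table. Copia-like loci with more WT reads were AT1G43886 (implied means of 389 in dme and 72.0 in WT) and AT1G44510 (242 in dme and 78.2 in WT), an AtRE2-1 element. They rose by 2.44 and 1.63 on the log2 scale per the authors' deposited table, with adjusted p-values of 0.0353 and 3.29e-05. AT1G43886 overlaps AT1G07203, a locus on its own strand that was not listed.

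AT2G14220 and AT3G21020 were lower copia-like loci with high counts. AT2G14220 had implied means of 213 in dme and 455 in WT and a log2 fold change of -1.10 (adjusted p 2.98e-07 per the authors' deposited table), while ANR1, a MADS-box gene of root nitrate responses and the locus before it, rose by 4.23 on that scale per the authors' deposited table. AT3G21020 had implied means of 51.6 in dme and 134 in WT and a log2 fold change of -1.38 per the authors' deposited table. Larger falls on fewer reads were those of AT5G35777 and AT3G60965, an AtRE1-like locus, at -3.17 and -2.90 per the authors' deposited table, with implied dme means of 2.91 each and WT means of 26.2 and 21.7. AT3G60965 overlaps AT3G60961, an unlisted protein-coding gene on the other strand. The copia-like loci thus held the largest rise of the 77 with reads in both genotypes as well as falls on high counts.

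Gypsy-like loci, the other class with long terminal repeats, were 3 higher and 3 lower of 6. AT4G06566 (chromosome 4) stood out by its adjusted p of 5.42e-28 per the authors' deposited table, with implied means of 231 in dme and 2.75 in WT and a log2 fold change of 6.40. No other listed gene lay within 10 loci of it, and no near-identical copy was found. AT1G36610, with implied means of 1.64 in dme and 14.0 in WT, had a log2 fold change of -3.10 per the authors' deposited table. It had 11 near-identical copies by joined matches, while its best single match, over 100% of the locus, was 94.4% identical. The other gypsy-like loci had mean normalized counts between 3.08 and 29.9 per the authors' deposited table.

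LINEs and other loci described by a reverse transcriptase were 6 higher and 8 lower of 14. AT5G27845 rose by 3.91 on the log2 scale (adjusted p 6.25e-14 per the authors' deposited table), with implied means of 92.8 in dme and 6.18 in WT. AT5G28773, a retroelement pseudogene, fell by 3.73 on the log2 scale, with implied means of 8.07 in dme and 107 in WT and an adjusted p of 8.38e-17 per the authors' deposited table. Both lie on chromosome 5, and neither has a listed neighbour within 10 loci. AT5G28053 had a log2 fold change of -5.60 per the authors' deposited table, but its implied dme mean, times 3 libraries, comes to 1.04 normalized counts. Its neighbour GSDA, a guanosine deaminase gene, rose by 1.05 on the log2 scale per the authors' deposited table. AT1G34842, without WT reads, overlaps AT1G34844, a long non-coding RNA gene on the other strand that was also higher without WT reads per the authors' deposited table. Strand use in the counting was not given in the sources used here, and reads of such a pair cannot be told apart.

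DNA transposons of the named classes were 3 higher and 8 lower of 11, beside the 27.2% of all listed measurements that were lower, and the difference was not tested. The 5 Ulp1-related loci, all higher, were not counted among these 11, so the balance depends on that choice of classes. CACTA-like loci, which encode Tnp1, Tnp2 or related proteins of the En/Spm group, were 2 higher and 3 lower. The 3 lower ones, AT1G35280, AT2G12210 and AT2G11070, picked out after their values were seen, were all Tnp2 loci with the pattern of no dme reads. Their implied WT means were 45.2, 30.5 and 13.1, and their adjusted p-values were 1.01e-08, 1.25e-06 and 3.30e-04 per the authors' deposited table. Each has at least 1 near-identical copy in the genome, so the locus of the reads is uncertain. The 2 higher CACTA-like loci were AT1G36630, a Tnp1 locus (implied means of 22.6 in dme and 3.43 in WT), and AT4G04170 (18.8 in dme and 2.41 in WT), of other subgroups by their descriptions. Of the 3 hAT-like loci, 1 was higher and 2 lower, and the 2 with the largest changes had few reads in a genotype. AT1G42110 had implied means of 78.7 in dme and 0.685 in WT, with a log2 fold change of 6.84 but an adjusted p of 0.01003 per the authors' deposited table. AT1G42705 had implied means of 0.639 in dme and 21.7 in WT, with a log2 fold change of -5.09 per the authors' deposited table. Of the rest, AT2G26630, described as an IS4-family transposase, had implied means of 5.25 in dme and 41.5 in WT, with a log2 fold change of -2.98 per the authors' deposited table. Both Mutator-like loci were lower, and AT1G64270, the higher in counts of the pair, overlaps NPR1, the unlisted salicylic acid receptor gene on the other strand.

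**Figure D3:**
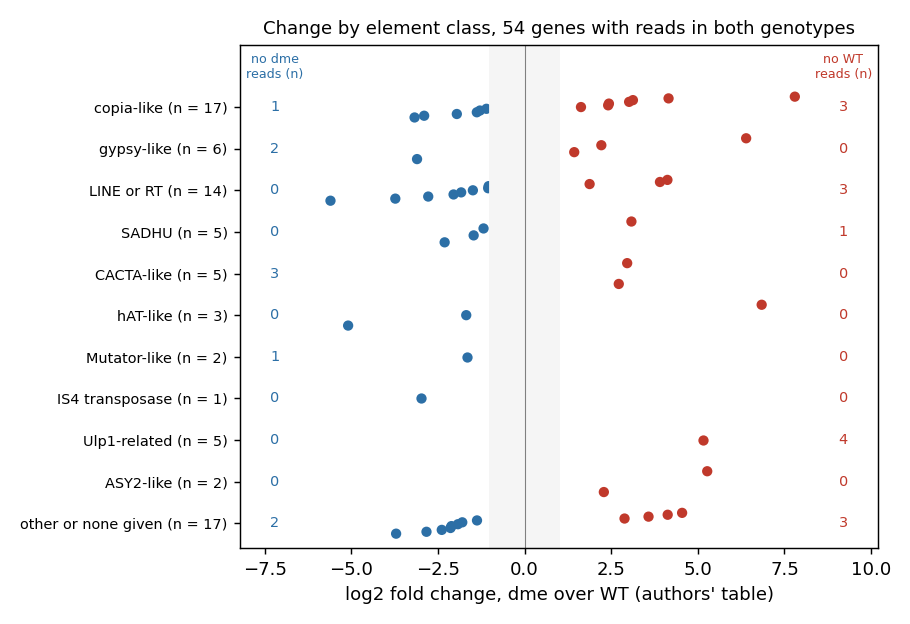
Authors' log2 fold change (dme over WT) of the 54 genes with reads in both genotypes, by element class, with the numbers of genes without WT reads on the right and without dme reads on the left; points are single genes and the grey band is the range that the table leaves out. Ulp1-related and ASY2-like loci lie on the higher side alone, and the 3 CACTA-like loci without dme reads on the lower.

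The remaining loci have another or no element class in their descriptions. A pair described as similar to ASY2, a meiotic chromosome axis protein, rose. AT3G10100 had implied means of 107 in dme and 2.77 in WT, with a log2 fold change of 5.27 and an adjusted p of 4.15e-08 per the authors' deposited table. AT4G20730 had 161 in dme and 33.0 in WT, with a log2 fold change of 2.29 and an adjusted p of 4.25e-14 per the authors' deposited table. The sequences of the pair are 92.9% identical. Of the 17 loci without any class, 7 were higher and 10 lower. AT3G30843, related by its description to an integrase, rose by 4.55 on the log2 scale (implied means of 72.0 in dme and 3.08 in WT, adjusted p 1.26e-09 per the authors' deposited table). The copia-like locus next to it on the same strand, AT3G30844, rose by 3.13 (48.3 in dme and 5.52 in WT, adjusted p 3.13e-05 per the authors' deposited table). AT4G08145, a locus with a domain of unknown function, had a log2 fold change of -3.70 per the authors' deposited table, with implied means of 2.27 in dme and 29.6 in WT.

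Lower counts in dme were also found for a pair of loci of 621 bases each on chromosome 3, AT3G30690 and AT3G30700, described as similar to each other alone. They stand 2 places apart in the gene order. AT3G30700 had implied means of 69.0 in dme and 303 in WT, with a log2 fold change of -2.13 and an adjusted p of 3.67e-23 per the authors' deposited table, the smallest among the lower genes of the 77. AT3G30690 had implied means of 33.1 in dme and 115 in WT, with a log2 fold change of -1.80 and an adjusted p of 1.44e-06 per the authors' deposited table. In the Columbia accession the loci differ at 7 of 621 positions. Reads can be told apart only across such positions, and whether Ler has the same ones is not known. Their first 300 bases are shown because 4 of the 7 lie there, in capitals. They stand at chr3:12245202-12245501 and chr3:12254881-12255180, both on the minus strand, in TAIR10.1.
AT3G30690: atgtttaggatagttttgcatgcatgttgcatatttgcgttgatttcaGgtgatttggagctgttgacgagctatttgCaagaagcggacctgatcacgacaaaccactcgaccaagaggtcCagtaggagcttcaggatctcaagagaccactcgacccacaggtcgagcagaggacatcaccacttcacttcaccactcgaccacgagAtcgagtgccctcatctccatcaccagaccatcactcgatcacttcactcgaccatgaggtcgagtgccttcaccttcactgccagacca
AT3G30700: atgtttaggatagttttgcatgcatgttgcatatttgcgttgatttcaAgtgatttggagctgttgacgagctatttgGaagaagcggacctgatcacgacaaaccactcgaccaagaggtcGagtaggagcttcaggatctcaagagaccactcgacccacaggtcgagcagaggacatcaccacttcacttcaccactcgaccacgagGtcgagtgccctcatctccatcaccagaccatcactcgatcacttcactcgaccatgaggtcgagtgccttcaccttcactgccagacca
AT3G30700 has 3 near-identical copies in the genome, the other locus of the pair included.

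Along the chromosomes, 25 of the 77 genes lay on chromosome 1 (16 higher and 9 lower), 15 on chromosome 2 (6 and 9), 13 on chromosome 3 (4 and 9), 7 on chromosome 4 (6 and 1) and 17 on chromosome 5 (6 and 11). Chromosomes 1 to 5 hold 689, 830, 878, 714 and 806 loci typed pseudogene. Chromosome 1 thus had the most of the 77 but has the fewest such loci, a difference that was not tested. Gene order was counted over all annotated loci by their start positions on the chromosome. On chromosomes 2, 3 and 4, 2 of 15, 5 of 13 and 1 of 7 lay between 40% and 60% of that order. In this stretch lie 4.70%, 56.4% and 5.04% of the loci typed pseudogene. Among the other listed genes the share higher was between 71.3% and 75.2% on each of the 5 chromosomes. On chromosome 1, 20 of the 25 lay between those bounds, as do 78.2% of that chromosome's loci typed pseudogene, and of the 20 genes 15 were higher and 5 lower. The other listed genes of that stretch were 123 higher and 51 lower, or 70.7% higher. On chromosome 5, 10 of 17 lay between 40% and 60%, as do 79.7% of its loci typed pseudogene, with 4 higher and 6 lower, while 83.9% of the 124 other listed genes there were higher. Stretches poor in protein-coding genes, as around centromeres, were measured by the share of protein-coding loci among the 50 on each side. Its median was 52.0% around the 77 genes, against 27.0% around all loci typed pseudogene, 81.0% around protein-coding genes and 81.0% around the other listed genes. In stretches under 50% stood 18 higher and 20 lower genes, and in the others 20 higher and 19 lower ones. The lower genes were shorter, with a median length of 1563 bases, against 3792 bases for the higher ones.

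**Figure D4:**
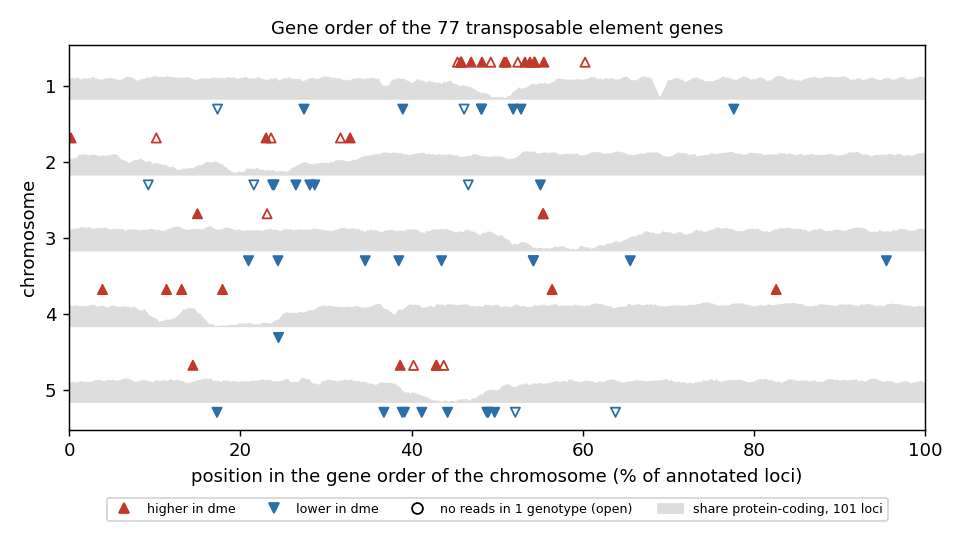
Position of the 77 genes in the gene order of each chromosome, in percent of its annotated loci, with genes higher in dme above and lower in dme below each line, open symbols for genes without reads in a genotype, and in grey the share of protein-coding loci in a running window along the order. Chromosome 1 holds 20 genes between 40% and 60%, of which 15 are higher, and chromosome 4 holds 6 higher and 1 lower.

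Some of the 77 stood close together. Within 10 loci of each other stood 9 consecutive pairs, made of 16 genes, of which 8 pairs had the same direction (5 higher, 3 lower) and 1 did not. AT1G36600 and AT1G36630, 7 places apart with another of the 77 between them, also differed in direction. No count of consecutive pairs over all listed genes stands beside these. The same-direction pairs include AT3G30690 and AT3G30700, which are 98.9% identical, so their reads may not be separate. Counted over listed genes of any type within 10 loci, 84 of 148 neighbours of the 77 (56.8%) had the same direction. For the other listed genes it was 64.8% of neighbours. These pooled shares mix higher and lower genes, which the 2 sets hold in different shares. Within each direction the share was not lower around the 77, at 77.8% against 76.2% for higher genes and 36.8% against 32.3% for lower ones. No difference was tested. The pairs with a gene not yet described were AT2G12210 with AT2G12320, both lower on chromosome 2, and AT5G32112 with AT5G30380, adjacent and both higher on chromosome 5. AT2G12320 had implied means of 9.73 in dme and 25.2 in WT. AT5G32112, a pseudogene related to replication protein A1, had implied means of 18.1 in dme and 1.03 in WT, and AT5G30380 had 16.1 in dme and no WT reads. The mixed pair was AT1G36610 and AT1G36630, 5 places apart. AT1G36600, a copia-like locus without dme reads and with an implied WT mean of 14.1, stands 2 places before AT1G36610, and AT1G36640, a protein-coding gene without WT reads, 2 places after AT1G36630. These pairs are not independent observations.

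Listed genes of any type near the 77 mostly followed the direction of all listed genes. Within 10 loci of the 38 higher genes stood 72 listed neighbours, of which 77.8% were also higher, against 76.2% around the other listed genes that were higher. Around the 39 lower genes stood 76 listed neighbours, of which 36.8% were also lower, against 32.3% around the other lower ones. The shares lie within 5 points of each other and were not tested. The locus directly before or after was listed for 23 of the 77 (29.9%), against 33.5% of the other listed genes.

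Of 46 genes that silence or demethylate transposons, 11 were listed (23.9%, against 18.6% of annotated protein-coding genes). Of these, 9 were higher and 2 lower per the authors' deposited table. Among all listed protein-coding genes 73.7% were higher, and the difference was not tested. The list was drawn up with earlier results of these data known. CMT3, the methyltransferase of CHG sites, rose most, with implied means of 986 in dme and 239.9 in WT, a log2 fold change of 2.04 and an adjusted p of 4.06e-20 per the authors' deposited table. Among the genes that maintain CG methylation, MET1, the CG methyltransferase, and its partners VIM1 and VIM3 rose by 1.04, 1.82 and 1.12 on the log2 scale per the authors' deposited table, while VIM2 was not listed. DDM1, a chromatin remodeller needed to silence transposons, rose by 1.12 per the authors' deposited table. In the pathway by which small RNAs direct methylation, AGO4 and IDN2 rose by 1.1 and 1.37 per the authors' deposited table, and the other 12 of 14 genes were not listed. ATXR6, a histone H3 methyltransferase of heterochromatin, and BRU1, which keeps silencing through replication, rose by 1.72 and 1.26 per the authors' deposited table. SGS3, which acts in the making of double-stranded RNA, fell by 1.12 on the log2 scale per the authors' deposited table, and DME was the other lower gene. The remaining 35, such as ROS1, DRM2 and MOM1, were not listed, which may mean a smaller change, a missed threshold or no test.

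The other 40 of the 77, which the rule for named genes does not reach, were 19 higher and 21 lower. Their mean normalized counts lay between 2.56 and 73.7 per the authors' deposited table, 17 of them had the pattern of no reads in a genotype, and the log2 fold changes of the rest lay between -2.83 and 4.12. Outside the type, 7 listed genes have words for transposons or Ulp1 in their descriptions, the silencing gene CMT3 given above among them. Of the 7, 4 were higher and 3 lower, while 72.8% of all listed measurements were higher. The 7 include FAR1, a transcription factor descended from a transposase, which rose by 1.76 on the log2 scale per the authors' deposited table, and its relative FRS9, which fell by 1.11.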

How the data were processed

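RNA of whole seedlings was sequenced in 3 dme and 3 WT libraries. Per the submitters' processing notes, the tools were Trimmomatic (0.36), HISAT2 (2.1.0) and StringTie (2.1.3), on build TAIR10; the counting, the use of strand and the differential test were not given in the sources used here. The table holds a signal that the authors deposited, the mean normalized count over all libraries, with a scaling that is not stated. It also holds the authors' log2 fold change, its linear fold (ratio) and an adjusted p-value deposited by the authors. It has 0 columns with values of single libraries, so depth is unknown and the fits planned on values per library were not run.

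Implied means assume 3 libraries per genotype with equal weight and folds that are plain ratios. Among the 54 genes, the smallest implied sums over 3 libraries were 1.04, 1.92 and 2.06. A gene was taken as without reads in a genotype where log2 of the mean minus the absolute log2 fold change lay under -3. The steps were run on simulated data built with these same relations. That run checks the arithmetic alone and cannot show whether the genes lacked reads. Loci were matched by locus code to the RefSeq annotation and genome of TAIR10.1, of the Columbia accession, from which the sequences and their coordinates come. The table itself has no coordinates. Whether Ler, the accession of the libraries, holds the same loci, copies and bases was not checked. Copies were sought with BLAST. Matches of at least 95% identity on 1 strand with gaps of up to 5000 bases between them were joined. Joined matches that together cover at least 80% of a locus were counted as a copy, so a copy can be made of separate pieces. Element classes were read from the table's descriptions. Named genes were the 12 highest means, the 8 largest rises and falls with reads in both genotypes, the 10 smallest adjusted p-values, loci with an element name, loci within 10 of another and listed silencing genes. The genes and lists were chosen with earlier results of these data known, and genes outside the rule after their values were seen. Python 3.11.15, pandas 2.3.3, numpy 2.4.6, Biopython 1.88 and matplotlib 3.10.9 were used.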

Additional observations from a re-analysis of the deposited data

How the results depend on the processing

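The numbers of genes in each direction (38 higher, 39 lower) moved by less than 1.5 times with an adjusted p under 0.01. The same held with means from 10 upward and without the 8 loci that overlap another annotated locus. Counting repeated rows could not change them, as no transposable element gene is among those rows. With all log2 fold changes shifted by 0.5, the 38 higher genes could not change and 30 lower ones were left. With the shift of -0.5, the 39 lower genes could not change and 37 higher ones were left. Both falls were by less than 1.5 times. The unchanged counts under the shifts were set by the table, which lists only changes of 2-fold or more. At 4-fold 35 higher and 24 lower genes were left, and with a mean of at least 50, 9 higher and 9 lower, fewer by construction. The 4-fold counts include the genes lacking reads in a genotype, whose folds were set by the mean. Among the 54 with reads in both genotypes, 21 higher and 15 lower reached 4-fold. Without the genes lacking reads in a genotype 24 higher genes were left, and without loci with a near-identical copy 22. The share of higher genes lay between 44.0% and 59.3% under these settings. It was 25% (5 higher, 15 lower) among the 20 genes with implied means of at least 10 in both genotypes, against 71.1% of all listed measurements under that minimum, which by construction removes the largest changes. For all listed measurements it was 85.6% at 4-fold and 86.0% with the shift of 0.5. This minimum and leaving out copies and overlapping loci were chosen after seeing the data. No paired analysis was possible because the table has no values per library, and for the same reason leaving out each replicate and other size factors were not run. Without depth or replicate values, the error of single folds cannot be stated.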
